A study of Mus musculus with 7 samples.

Results

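Potassium channel genes were examined in C3H10T1/2 cells, an established mouse line of mesenchymal stem cell character, during early osteoblast (OB) differentiation. The members were all genes of the deposited table whose symbol is Kcn followed by letters and a closing number, which gave 92 of 54532 features. Of these 80 have 1 letter after Kcn, and the other 12 carry more (Kcnab, Kcnip, Kcnma and Kcnmb). A further 7 symbols that start with Kcn, such as the antisense RNA Kcnq1ot1, fell outside the pattern. By structural class the members were 40 pore genes of voltage-gated channels, 15 of inward rectifiers, 14 of tandem-pore channels and 8 of calcium- or sodium-activated channels, with 15 genes of accessory subunits.

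Messenger RNA was sequenced from 4 OB and 3 control libraries. The OB cells were induced for 3 days with dexamethasone (a synthetic glucocorticoid), β-glycerophosphate at 10 mM and ascorbic acid at 50 µM, with penicillin-streptomycin, in complete medium. The control cells were untreated, and both groups shared a basal MEM culture with fetal bovine serum, glutamine, pyruvate and non-essential amino acids. The labels give no time in culture for the control cells. The dose of dexamethasone is written ambiguously in the labels and is left out. The design text calls the replicates biological without naming separate cultures, so the p-values speak of the spread among these 7 libraries, which may be partly technical.

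Potassium channels let potassium leave the cell along its gradient and so set the membrane potential, which in turn governs how much calcium enters. Voltage-gated channels open on depolarisation, inward rectifiers hold the resting potential, tandem-pore channels carry background and stretch-sensitive leak currents, and calcium-activated channels open when calcium rises inside the cell. Accessory subunits carry no pore but change the opening and surface delivery of the pores they bind. In mesenchymal and bone-forming cells these currents are known for roles in proliferation, in the response to stretch and in calcium signalling.

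Total counts were 21213328 to 43403730 in the OB libraries and 25689889 to 46530017 in the control libraries, so that 3 counts equal 0.0639 to 0.139 CPM (counts scaled to a common library total after TMM normalisation). All 10 mesenchymal markers examined, among them Col1a1, Pdgfra and Vim, exceeded 1 CPM in each of the 7 libraries. Of 7 osteoblast markers 3 did so (Runx2, Spp1 and Dlx5). The list summed to 198 to 771 CPM in OB and 468 to 688 CPM in control. Alpl and Bglap stayed at or below 0.207 CPM in every library, Sp7 at or below 0.371 CPM and Ibsp at or below 0.61 CPM. Runx2 stood at 66.5 to 80.6 CPM in OB and 85.8 to 112 CPM in control. Adipocyte markers summed to 96.4 to 170 CPM in OB and 45.6 to 69.3 CPM in control. Among them Fabp4 stood at 32.8 to 57.8 CPM in OB and 4.56 to 7.46 CPM in control, and Pparg was also higher in all OB libraries. Cebpa (11.9 to 45.2 CPM in OB, 3.29 to 25.6 CPM in control), Adipoq and Plin1 overlapped between the groups. Over 10 proliferation markers, the sum was 366 to 540 CPM in OB and 825 to 2410 CPM in control. Of 7 neuronal markers 1 passed 1 CPM in every library, Map2 at 132 to 293 CPM in OB and 104 to 153 CPM in control, while Rbfox3, Snap25 and Gad1 had 0 counts. Smooth muscle markers summed to 548 to 1170 CPM in OB and 859 to 1050 CPM in control, nearly all from Acta2. The sums were at most 2.92 CPM in OB and 6.39 CPM in control for other muscle (Myod1 and Actn2 at 0), 3.52 and 3.36 CPM for macrophages (Adgre1 at 0), 1.30 and 3.33 CPM for epithelium (Epcam at 0), and 8.03 and 9.43 CPM for endothelium. Control 3 stood apart from control 1 and 2 on the first principal component of all tested genes (96.9 against 23 and 25.3), which held 53.1% of the variance. The submitters' descriptions of the libraries start with C1 for OB 1 and control 1, with C2 for OB 2 and control 2, and carry no C number for OB 3, OB 4 and control 3. In fits within the libraries with no C number, control 3 is the single control and is assumed to vary like the OB libraries.

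Only a small part of the family was expressed in this line. Of the 92 members, 63 had at least 1 count in the 7 libraries together and 29 had none. Enough counts for a test were present for 22 members, and 10 of these stood at 1 CPM or more in every library. Kcnip3, Kcnd1, Kcnj2, Kcnn1, Kcnn4, Kcnab2, Kcnk2, Kcnip4, Kcnab3 and Kcnc2 made up this well expressed set. Among the tested members were 5 of the 40 voltage-gated pore genes, 3 of the 15 inward rectifiers, 3 of the 14 tandem-pore genes, 4 of the 8 calcium- or sodium-activated pore genes and 7 of the 15 accessory genes. Levels of different genes are compared below as CPM per kb of the deposited exon length.

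**Figure D1:**
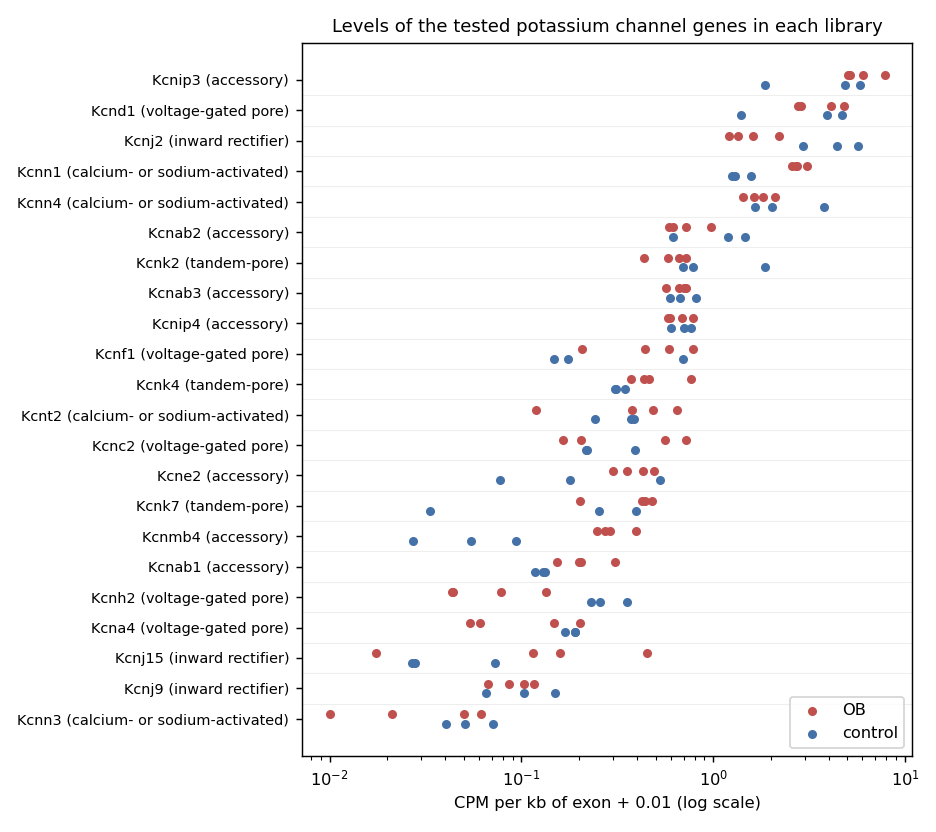
CPM per kb of exon, with 0.01 added for the log scale, of the 22 tested members in each of 4 OB libraries (red) and 3 control libraries (blue), sorted by their mean over the 7 libraries. Kcnip3, Kcnd1, Kcnj2, Kcnn1 and Kcnn4 hold the top of the order, and the groups are apart for 6 members, Kcnn1, Kcnj2, Kcnmb4, Kcnh2, Kcnk4 and Kcnab1.

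Over all 7 libraries the highest mean level per length belonged to Kcnip3, which encodes calsenilin, a calcium-binding protein that joins voltage-gated channels of the Kcnd type and also acts as a repressor of transcription. Its mean was 5.23 CPM per kb. Next came Kcnd1, the pore gene of a fast-inactivating voltage-gated channel, at 3.51 CPM per kb. Kcnj2, a strong inward rectifier, followed at 2.77, Kcnn1, a small-conductance calcium-activated channel, at 2.17, and Kcnn4, the intermediate-conductance calcium-activated channel, at 2.05 CPM per kb. Kcnip3 was above Kcnd1 in each of the 7 libraries, but the order of the others turned with the group. Kcnj2 averaged 1.58 CPM per kb in OB, below Kcnn1 (2.77) and Kcnn4 (1.74), and 4.34 CPM per kb in control, above Kcnip3 (4.19) and Kcnd1 (3.33). In control 3 Kcnn4 (3.77 CPM per kb) and Kcnj2 (2.94) were above Kcnip3 (1.86). Below them the level dropped to 0.872 CPM per kb for Kcnab2, a cytoplasmic beta subunit, and 0.811 for Kcnk2, a stretch-sensitive tandem-pore channel. Kcnip4 and Kcnab3, accessory genes of the same families as Kcnip3 and Kcnab2, each stood at 0.666 CPM per kb.

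Among the 22 tested members, 4 changed in OB. Kcnn1 and Kcnmb4 rose, and Kcnj2 and Kcnh2 fell, while 18 did not pass. The edgeR quasi-likelihood test was run on 15441 genes, with p adjusted by Benjamini-Hochberg and a threshold of 0.05, and called 8.04% of all genes tested, 4.32% as higher and 3.72% as lower in OB. Called members were thus 18.2% of those tested, and the difference from the share over all genes was not tested. DESeq2 called 2 members higher and 2 lower, against 16.5% of all genes, and limma-voom called 2 and 2, against 15.1%. The OB and control libraries did not overlap for 6 of the 22 members, against 25.5% of all genes tested. Kcnmb4 had enough counts for a test through its OB libraries and Kcnh2 through its control libraries, the group where each was high. Both are part of the shares given here. The median log2 fold change was 0.206 over the 22 members and -0.00402 over all genes, which describes these libraries only.

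**Figure D2:**
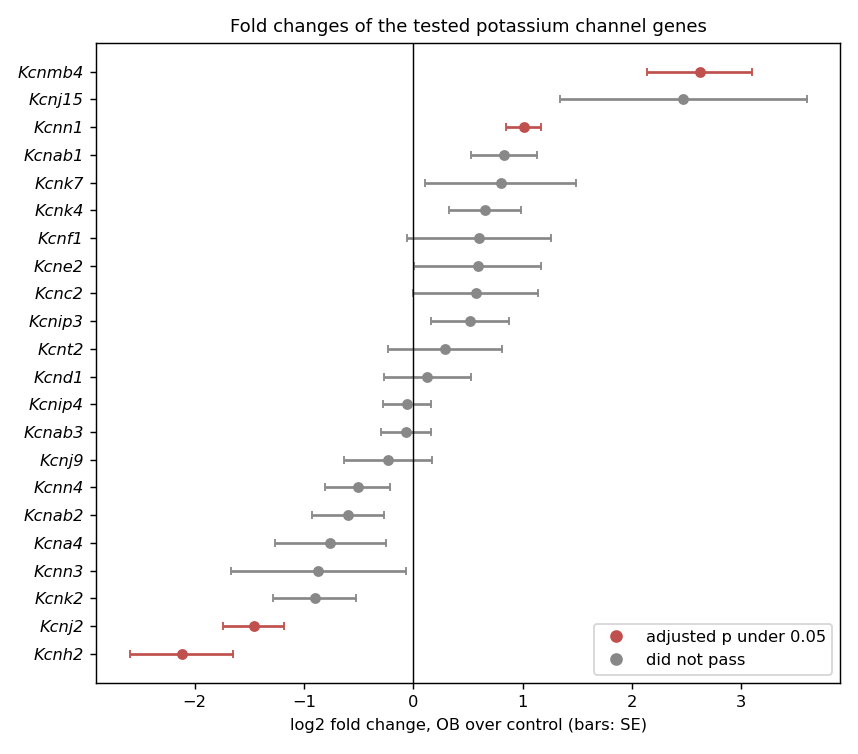
Log2 fold change of OB over control from edgeR for the 22 tested members, with its SE as bars. Red points passed at adjusted p under 0.05 (Kcnmb4 and Kcnn1 above 0, Kcnj2 and Kcnh2 below) and grey points did not pass.

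Kcnn1 encodes a small-conductance channel that opens through calmodulin when intracellular calcium rises. It stood at 12.5, 11.8, 14.2 and 12.3 CPM in OB 1 to 4, against 7.22, 5.92 and 5.75 CPM in control 1 to 3. Every OB library lay above every control library, and both groups were tight. The group means were 12.7 ± 1.04 CPM in OB (SD, n = 4) and 6.30 ± 0.800 CPM in control (SD, n = 3). The log2 fold change was 1.01 ± 0.16 (SE, edgeR adjusted p = 0.0143). In the C1 and C2 libraries it was 0.89 (edgeR adjusted p = 0.0404), where 9.67% of all genes were called, and in the libraries with no C number 1.19 (0.00169), where 40.1% were. The call ended only without control 2 (log2 fold change 0.95, edgeR adjusted p = 0.0632). Kcnn1 (ENSMUSG00000002908) lies on the minus strand at 70842049 to 70863258 of chromosome 8 in mm10, and 2.88% of its exon bases are shared with other genes.

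Kcnj2 encodes an inward rectifier that clamps the resting membrane potential near the potassium equilibrium. In OB 1 to 4 it stood at 11.9, 6.56, 7.23 and 8.73 CPM, against 23.9, 31.0 and 16 CPM in control 1 to 3. The OB libraries lay below all control libraries, of which control 3 was the lowest. Kcnj2 averaged 8.61 ± 2.38 CPM in OB (SD, n = 4) and 23.6 ± 7.53 CPM in control (SD, n = 3), and the change was -1.46 ± 0.28 on the log2 scale (SE, edgeR adjusted p = 0.0225). The fall was -1.58 in the C1 and C2 libraries and -1.01 in those with no C number (edgeR adjusted p = 0.0396 and 0.00266). The call ended without OB 2, OB 3, OB 4 or control 2 (edgeR adjusted p = 0.0574, 0.0594, 0.0635 and 0.0787). Kcnj2 (ENSMUSG00000041695) lies on the plus strand at 111066164 to 111076821 of chromosome 11 in mm10 and shares no exon base with another gene.

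Kcnmb4 encodes a beta subunit of the large-conductance calcium-activated channel that slows its gating. Its levels were low, at 0.935, 0.870, 0.788 and 1.28 CPM in OB 1 to 4, against 0.149, 0.0570 and 0.278 CPM in control 1 to 3. These values rest on 108 counts over the OB libraries and 16 counts over the control libraries, and the groups did not overlap. The means were 0.969 ± 0.218 CPM in OB (SD, n = 4) and 0.161 ± 0.111 CPM in control (SD, n = 3). The log2 fold change was 2.62 ± 0.48 (SE, edgeR adjusted p = 0.02). It was 3.02 in the C1 and C2 libraries (edgeR adjusted p = 0.0275) and 1.87 in those with no C number, where it did not pass (0.0589). The call ended without OB 1, OB 4, control 1 or control 2 (edgeR adjusted p = 0.0618, 0.0511, 0.0551 and 0.0628). The pore gene of the same channel, Kcnma1, had 12 counts over the OB libraries and 19 over the control libraries, or 0.106 CPM in OB (95% exact Poisson interval 0.0549 to 0.186) and 0.177 CPM in control (0.107 to 0.277). These intervals, like the others on counts given here, cover counting error only. The smooth muscle type beta subunit gene Kcnmb1 had 0 counts in OB and 2 in control, and Kcnmb2 and Kcnmb3 had none in any library. Kcnmb4 (ENSMUSG00000054934) lies on the minus strand at 116417861 to 116473878 of chromosome 10 in mm10. Of its exon bases 31.5% overlap other genes, mostly the antisense gene Kcnmb4os2, which had 27 counts over the OB libraries and 6 over the control libraries. The library kit does not mark strand, so within the shared bases reads from Kcnmb4 and from its antisense partner cannot be told apart.

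Kcnh2 encodes the pore of the ether-a-go-go related channel, known for its repolarising current in the heart. It stood at 0.163, 0.165, 0.603 and 0.331 CPM in OB 1 to 4, against 1.68, 1.2 and 1.07 CPM in control 1 to 3. OB 3 came nearest to the control libraries without reaching them, and the sums were 32 counts in OB and 148 counts in control. Kcnh2 averaged 0.315 ± 0.207 CPM in OB (SD, n = 4) and 1.32 ± 0.322 CPM in control (SD, n = 3). The log2 fold change was -2.12 ± 0.47 (SE, edgeR adjusted p = 0.0350), and under the replicate block, which compares libraries of the same replicate number, it was -2.24 and did not pass (edgeR adjusted p = 0.0731), which left 2 members higher and 1 lower against 8.76% of all genes called. It was -3.11 in the C1 and C2 libraries (edgeR adjusted p = 0.0162) and -1.22 in those with no C number (0.147). Without OB 1, OB 2, OB 4, control 1 or control 2 the call ended (edgeR adjusted p = 0.101, 0.0785, 0.0871, 0.0854 and 0.0940). Kcnh2 (ENSMUSG00000038319) lies on the minus strand at 24319589 to 24351604 of chromosome 5 in mm10.

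**Figure D3:**
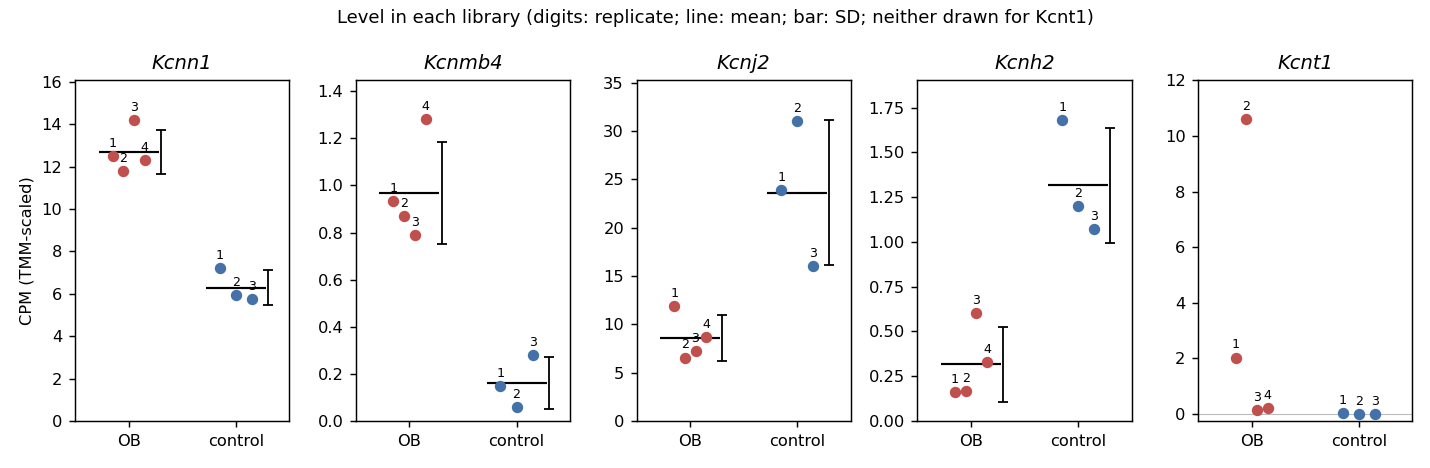
TMM-scaled CPM of Kcnn1, Kcnmb4, Kcnj2, Kcnh2 and Kcnt1 in each library, OB left of control, with digits for the replicate, a line for the mean and a bar for the SD (neither for Kcnt1). Each of the first 4 genes has its groups apart, and Kcnt1 reaches 10.6 CPM in OB 2 alone.

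Counted over the 7 libraries left out in turn, the calls moved as follows. By edgeR, the number of members called higher was 1 without OB 1, OB 4 or control 1 and 0 without control 2, where 4 members were higher at an unadjusted p under 0.05. Among all genes 667 were higher with every library kept, and 225, 341, 480 and 190 in these cases in the same order. The number called lower was 1 without OB 1, OB 3 or control 1 and 0 without OB 2, OB 4 or control 2, where 2, 2 and 3 members were lower at an unadjusted p under 0.05. Among all genes 574 were lower with every library kept. Without OB 1, OB 3 and control 1 in turn, 104, 227 and 703 genes were lower. Without OB 2, OB 4 and control 2 in turn, 180, 202 and 107 genes were lower. DESeq2 and limma-voom were run on all libraries only. The proliferation markers given above were lower, and the sum of the adipocyte markers higher, in all OB libraries than in all control libraries. The part of these markers in the calls was not tested.

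The bases before the starts of the 4 called genes are shown because these genes moved in opposite directions in cells given a glucocorticoid, whose receptor binds DNA as pairs of short half-sites. The windows are the 250 bases upstream of the start in RefSeq annotation (GRCm38.p6), read 5′ to 3′ on the gene's strand. Capitals mark the half-site AGAACA or its reverse complement TGTTCT and the GC box GGGCGG or its reverse complement CCGCCC, each searched on both strands. RefSeq gave 2 starts for Kcnn1 and 1 for each of the others, and the Kcnh2 start is that of a shorter transcript within the gene. The Kcnmb4 window and the Kcnn1 window that starts at 70857009 also lie within the gene spans given above.
Kcnn1, chr8:70863259-70863508, minus strand: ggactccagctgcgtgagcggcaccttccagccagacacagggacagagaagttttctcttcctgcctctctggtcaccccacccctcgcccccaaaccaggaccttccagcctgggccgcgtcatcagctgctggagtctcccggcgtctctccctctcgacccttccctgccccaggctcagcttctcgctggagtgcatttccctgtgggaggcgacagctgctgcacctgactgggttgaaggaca
Kcnn1, chr8:70857009-70857258, minus strand: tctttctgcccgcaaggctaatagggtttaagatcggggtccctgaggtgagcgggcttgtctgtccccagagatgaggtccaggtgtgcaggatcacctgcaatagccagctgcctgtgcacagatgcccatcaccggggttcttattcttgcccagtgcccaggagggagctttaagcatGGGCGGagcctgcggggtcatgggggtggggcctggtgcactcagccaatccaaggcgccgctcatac
Kcnmb4, chr10:116473524-116473773, minus strand: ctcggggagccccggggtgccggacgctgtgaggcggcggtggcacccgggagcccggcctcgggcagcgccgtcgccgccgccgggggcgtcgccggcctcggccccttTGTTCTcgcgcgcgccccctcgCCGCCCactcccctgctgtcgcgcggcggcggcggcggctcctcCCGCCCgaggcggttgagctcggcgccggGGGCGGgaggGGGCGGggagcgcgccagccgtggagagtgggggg
Kcnj2, chr11:111065914-111066163, plus strand: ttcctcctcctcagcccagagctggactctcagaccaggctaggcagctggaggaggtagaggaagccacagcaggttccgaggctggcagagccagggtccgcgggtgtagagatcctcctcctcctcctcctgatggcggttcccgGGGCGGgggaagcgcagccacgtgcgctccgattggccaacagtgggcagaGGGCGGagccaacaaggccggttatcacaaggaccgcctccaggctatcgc
Kcnh2, chr5:24329592-24329841, minus strand: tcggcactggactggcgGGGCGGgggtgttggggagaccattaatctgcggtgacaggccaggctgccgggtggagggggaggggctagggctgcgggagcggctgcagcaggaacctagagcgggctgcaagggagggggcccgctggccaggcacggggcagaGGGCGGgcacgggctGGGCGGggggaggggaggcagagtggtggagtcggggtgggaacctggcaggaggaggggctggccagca
The half-site letters occur once, in the Kcnmb4 window, and 16.1% of all 32851 windows of this length hold them. The GC box letters occur 4 times in the Kcnmb4 window, 3 times in that of Kcnh2, 2 times in that of Kcnj2 once in the Kcnn1 window that starts at 70857009 and not in the other Kcnn1 window, and 32.7% of all windows hold them. Of the members, 67 genes had 92 windows, of which 14.1% hold the half-site letters and 44.6% the GC box letters. The GC content was 83.6% in the Kcnmb4 window, 73.6% in that of Kcnh2, 65.6% in that of Kcnj2 and 63.6% and 60.4% in those of Kcnn1, against a median of 52.4% over all windows. These matches describe the letters and are neither sites nor causes.

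The make-up of the pore-forming genes as a whole can be read from the 5 leading ones. Their summed level over all pore-forming members was 15.8, 11.7, 15.6 and 12.8 CPM per kb in OB 1 to 4, against 15.9, 15.7 and 14.3 CPM per kb in control 1 to 3, and the groups overlapped. Kcnj2 held 13.9%, 10.3%, 8.51% and 12.6% of that sum in OB 1 to 4, against 27.7%, 36.3% and 20.5% in control 1 to 3. Kcnn1 held 17.3%, 21.9%, 19.8% and 21.0% in OB, against 9.92%, 8.23% and 8.77% in control. Among pore genes Kcnj2 ranked 3 to 4 in OB and 1 to 2 in control, and Kcnn1 ranked 2 in every OB library and 4 to 5 in control. Kcnd1 led in every OB library at 22.5% to 30.5%, and in control it held 29.5% and 25% in control 1 and 2 and 9.66% in control 3. These shares follow from the called changes above and are given without a test.

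**Figure D4:**
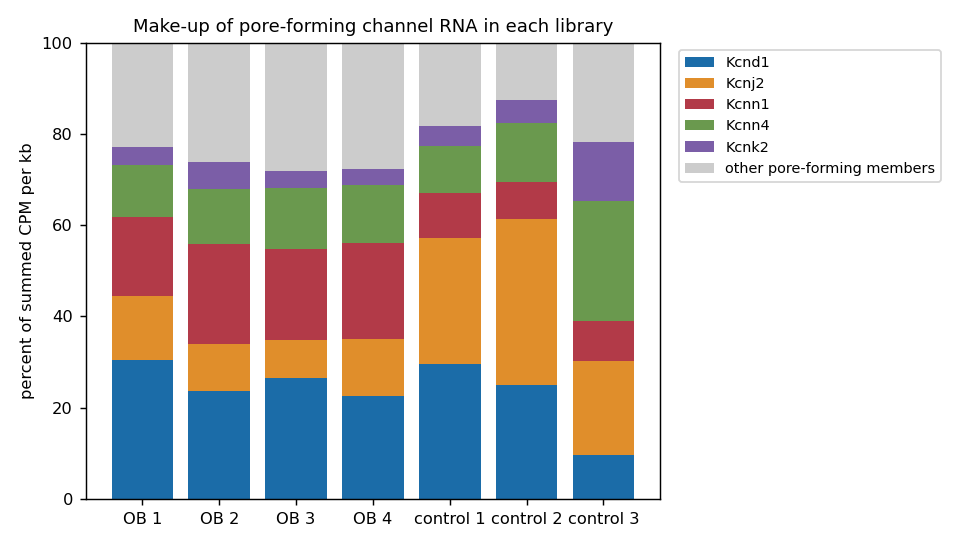
Percent of the summed CPM per kb of all pore-forming members held by Kcnd1, Kcnj2, Kcnn1, Kcnn4 and Kcnk2 and by the rest, in 4 OB libraries and 3 control libraries. The Kcnj2 part is at most 13.9% in OB and at least 20.5% in control, and the Kcnn1 part is at least 17.3% in OB and at most 9.92% in control.

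The remaining voltage-gated pore genes did not pass. Kcnd1 stood at 25.5, 14.6, 21.8 and 15.2 CPM in OB 1 to 4, against 24.7, 20.8 and 7.30 CPM in control 1 to 3. The OB libraries fell within the range of the control libraries or just above it, and control 3 was the lowest of all (log2 fold change 0.13 ± 0.40, edgeR adjusted p = 0.875). Without control 3 the log2 fold change of Kcnd1 was -0.25 (edgeR adjusted p = 0.575). Kcnf1, an electrically silent subunit that modifies other voltage-gated pores, stood at 3.70, 0.940, 2.78 and 2.07 CPM in OB 1 to 4, against 0.788, 0.655 and 3.29 CPM in control 1 to 3, and the groups overlapped (edgeR adjusted p = 0.615). Kcna4, a fast-inactivating channel of the Shaker type, and Kcnc2, a fast channel of the Shaw type, differed by -0.76 ± 0.51 and 0.57 ± 0.57 on the log2 scale (SE, edgeR adjusted p = 0.397 for Kcna4 and 0.576 for Kcnc2). Of the voltage-gated pore genes 14 had 0 counts in every library, among them Kcnd2, Kcnd3, Kcna5 and Kcnq5.

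Of the calcium- and sodium-activated pores, Kcnn4 stood at 9.23, 7.29, 10.7 and 8.36 CPM in OB 1 to 4, against 8.37, 10.3 and 19.3 CPM in control 1 to 3. Its product is the calcium-activated channel best known from proliferating lymphocytes and fibroblasts. The groups overlapped and control 3 was the highest (log2 fold change -0.51 ± 0.30, edgeR adjusted p = 0.325). Without control 3 it was -0.08 (edgeR adjusted p = 0.835). The ratio of Kcnn1 to Kcnn4, both per kb, was 1.51, 1.80, 1.48 and 1.64 in OB 1 to 4, against 0.962, 0.639 and 0.333 in control 1 to 3. It was above 1 in every OB library and below 1 in every control library, which follows in part from the called change of Kcnn1. Kcnt2, a sodium-activated channel, did not pass (0.29 ± 0.52, edgeR adjusted p = 0.779), nor did Kcnn3, another small-conductance channel (-0.87 ± 0.80, 0.539). Kcnn2, the third of the small-conductance genes, had 0 counts in every library.

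Kcnt1, the other sodium-activated pore gene, was nearly silent in control and present in some OB libraries. It stood at 2.03, 10.6, 0.139 and 0.207 CPM in OB 1 to 4, against 0.0426 CPM in control 1 and 0 in control 2 and 3. The sums were 507 counts in OB and 2 counts in control, a ratio of pooled CPM of 241 (95% exact binomial interval 66.4 to 1990). Of the OB counts, 88.6% came from OB 2, and without that library the ratio was 44.2 (11.7 to 374, an alternative chosen after seeing the data), while OB 3 and OB 4 were close to the level of 3 counts. The low-count filter removed Kcnt1, and without the filter edgeR called it higher (adjusted p = 0.0256), where 4.72% of all 29763 genes were called. Where it was tested with a control library left out it did not pass (edgeR adjusted p = 0.158, 0.184 and 0.140 without control 1, 2 and 3). In the C1 and C2 libraries it passed (log2 fold change 7.86, edgeR adjusted p = 0.0275), where 9.67% of all genes were called. This subset leaves out OB 3 and OB 4, where the gene was low. Kcnt1 met the filter there only through OB 1 and OB 2. Kcnt1 (ENSMUSG00000058740) lies on the plus strand at 25863734 to 25918273 of chromosome 2 in mm10, and none of its 50-base words recurs in another gene.

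Of the 3 tested tandem-pore genes, 0 passed by edgeR, DESeq2 or limma-voom, and 1 was lower at an unadjusted p under 0.05 by edgeR. That gene was Kcnk2, at 3.21, 3.50, 2.83 and 2.11 CPM in OB 1 to 4, against 3.41, 3.84 and 9.17 CPM in control 1 to 3. Control 3 stood apart as the highest, and the other libraries were close to each other. Its log2 fold change was -0.90 ± 0.38 (SE, edgeR adjusted p = 0.188), and -0.32 without control 3 (0.480). Of its exon bases 12.2% overlap an antisense gene. Kcnk4, another stretch-sensitive channel, stood at 0.621 to 1.30 CPM in OB, with a median of 0.751 CPM, and at 0.513 to 0.575 CPM in control. Its groups did not overlap, yet it did not pass (0.66 ± 0.33, edgeR adjusted p = 0.257). Of the 50-base words of its transcripts 13.2% recur in other genes, most often in Catsperz, while its counted exons share no base with another gene. Kcnk15 had 44 counts in OB and 25 in control and was not tested.

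Among the inward rectifiers other than Kcnj2, Kcnj15 stood at 0.935, 0.0470, 2.78 and 0.662 CPM in OB 1 to 4, against 0.106, 0.114 and 0.397 CPM in control 1 to 3. The OB libraries spread on both sides of the control libraries, and the log2 fold change of 2.47 ± 1.13 did not pass (edgeR adjusted p = 0.218). Kcnj9 did not pass either (-0.23 ± 0.40, edgeR adjusted p = 0.759). Kcnj14, with 18 counts in OB and 31 in control, was not tested, and 30.8% of its 50-base words recur in other genes. Kcnj8 and Kcnj11, the pores of the ATP-sensitive channels, had 0 counts in every library, which in a single library allows up to 0.0639 to 0.139 CPM.

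Of the accessory genes other than Kcnmb4, Kcnip3 stood at 21.5, 27.7, 17.8 and 18.4 CPM in OB 1 to 4, against 17.3, 20.7 and 6.59 CPM in control 1 to 3. Control 3 was the lowest library for Kcnip3 as it was for Kcnd1, whose product the Kcnip3 protein can bind. The log2 fold change was 0.52 ± 0.36 (SE, edgeR adjusted p = 0.410), and 0.16 without control 3 (0.662). Kcnab1, a beta subunit of voltage-gated channels with an oxidoreductase fold, stood at 2.56, 1.62, 1.67 and 1.24 CPM in OB 1 to 4, against 0.915, 1.05 and 1.03 CPM in control 1 to 3. Its groups did not overlap, and it did not pass (0.83 ± 0.30, edgeR adjusted p = 0.135). Kcnab2 stood at 3.38, 3.22, 5.38 and 3.97 CPM in OB, against 3.38, 8.14 and 6.59 CPM in control (-0.60 ± 0.33, edgeR adjusted p = 0.301). Kcnip4 and Kcnab3 had log2 differences close to 0, at -0.06 ± 0.22 for Kcnip4 (SE, edgeR adjusted p = 0.894) and -0.07 ± 0.23 for Kcnab3 (0.887). Kcne4, a single-span subunit that restrains voltage-gated pores, had 48 counts in OB and 19 in control, or 0.425 CPM (95% exact Poisson interval 0.314 to 0.564) and 0.177 CPM (0.107 to 0.277), and was not tested.

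Further voltage-gated pore genes were at the edge of detection. Kcnh1, the ether-a-go-go channel gene, had 9 counts in OB and 5 in control, or 0.0797 CPM (95% exact Poisson interval 0.0365 to 0.151) and 0.0466 CPM (0.0151 to 0.109). Kcnq1, a slow voltage-gated channel gene, had 6 and 3 counts, and the antisense RNA from its locus, Kcnq1ot1, had 2146 counts in OB and 1933 in control. For Kcnh1 and Kcnq1 no difference between the groups was detectable at this depth.

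Genes outside the member pattern that move potassium or supply calcium were examined as lists. Of 14 tested genes of potassium pumps and cotransporters, 11 did not pass, 2 rose and 1 fell by edgeR, which called 8.04% of all genes. DESeq2 called 4 higher and 1 lower in this list, against 16.5% of all genes, and limma-voom 3 and 1, against 15.1%. Atp1b1, a beta subunit gene of the sodium pump, stood at 372, 261, 245 and 164 CPM in OB 1 to 4, against 79.4, 109 and 49.8 CPM in control 1 to 3. All its OB libraries lay above all its control libraries (log2 fold change 1.71 ± 0.34, edgeR adjusted p = 0.0251), although 18.7% of its exon bases overlap other genes, mostly Nme7. Fxyd5, a small regulator of the pump, fell to 13.6 ± 2.04 CPM in OB, against 28.8 ± 7.02 CPM in control (-1.08 ± 0.19, edgeR adjusted p = 0.0194). Without 1 library at a time the call of Atp1b1 ended for OB 1, OB 2, OB 3 and control 1 (edgeR adjusted p up to 0.0641) and that of Fxyd5 for OB 1, OB 2, OB 4 and control 2 (up to 0.0637).

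Of 16 tested calcium channel and store genes, 13 did not pass, 2 rose and 1 fell by edgeR, against 8.04% of all genes called. By DESeq2 4 were higher and 1 lower, against 16.5% of all genes, and by limma-voom 3 and 1, against 15.1%. Stim1, the sensor of calcium in the endoplasmic reticulum that opens store-operated channels, stood at 521, 524, 251 and 281 CPM in OB 1 to 4, against 89.9, 90.5 and 42.7 CPM in control 1 to 3. The lowest OB library was well above the highest control library, with OB 1 and 2 higher than OB 3 and 4 (log2 fold change 2.41 ± 0.39, edgeR adjusted p = 0.0143), and the call held whichever library was left out. Its paralogue Stim2 fell to 27.0 ± 1.79 CPM in OB (SD, n = 4), against 41.0 ± 0.415 CPM in control (SD, n = 3), or -0.60 ± 0.10 on the log2 scale (SE, edgeR adjusted p = 0.0150). Itpr1, an inositol trisphosphate receptor of the stores, rose to 23.6 ± 2.24 CPM in OB, against 14.4 ± 0.524 CPM in control (0.71 ± 0.13, edgeR adjusted p = 0.0184). The call of Stim2 ended without OB 1 or control 2 (edgeR adjusted p = 0.0534 and 0.0625), and that of Itpr1 without OB 1, OB 4 or control 2 (up to 0.0844) and under the replicate block, where it rounds to 0.05 without passing.

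Of 8 tested regulators of channel traffic 1 rose and 7 did not pass by edgeR, against 8.04% of all genes called. DESeq2 and limma-voom each called 3 higher and 1 lower, against 16.5% and 15.1% of all genes. The gene called by edgeR was Wnk4, a kinase gene that controls potassium and chloride transport in the kidney, at 93.1, 111, 32.9 and 45.7 CPM in OB 1 to 4, against 15.3, 13.1 and 2.70 CPM in control 1 to 3. The groups were apart and each was uneven (log2 fold change 2.76 ± 0.65, edgeR adjusted p = 0.0428), and the call ended whichever library other than control 3 was left out (edgeR adjusted p up to 0.111). Of 3 tested channel partners outside the member pattern (Tmem175, Kcnrg and Kcnq1ot1), 0 passed by edgeR, DESeq2 or limma-voom, and 0 had an unadjusted p under 0.05 by edgeR. They include Tmem175, a lysosomal potassium channel gene, at 40.9 ± 3.41 CPM in OB (SD, n = 4) and 29.6 ± 10.2 CPM in control (SD, n = 3), with edgeR adjusted p = 0.262. Of the gamma subunit genes of the large-conductance channel, Lrrc55 had 24 counts in OB and 19 in control, Lrrc38 had 1 count in OB and 0 in control, and Lrrc26 and Lrrc52 had 0 in every library.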

How the data were processed

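The values are whole-number counts per gene, deposited by the authors in 1 table of 7 libraries with exon lengths. Per the file headers and the submitters' processing notes, reads were counted with featureCounts 1.6.4 against Ensembl 94 on mm10, after Trimmomatic and HISAT2 (no versions given). Fragments were counted without strand. The columns were matched to libraries through the input names in the counting command.

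CPM used TMM factors (0.981 to 1.024) and, between genes, the deposited exon length. OB was compared with control by edgeR 4.0.16 (glmQLFit, glmQLFTest, filterByExpr, R 4.3.3) over all 7 libraries with no covariate, and adjusted over 15441 genes. Alternatives were DESeq2 1.42.0 on the filtered genes, limma-voom (limma 3.58.1) with quality weights, other scalings, no filter, blocks, subsets by description and leaving out each library.

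Members, gene lists and tests were chosen with earlier results of these data known. Named by rule were the called members, the 12 of highest CPM per kb, non-overlapping members past a log2 fold change of 1, 10 fixed genes, the 5 untested members with most counts and, from each partner list, up to 4 called genes and the 2 highest where fewer than 2 were called. Other genes were named after their values were seen, and some genes within the counts are not reported here by name. Same-numbered libraries deviated together (correlations 0.17, 0.52 and 0.40 for replicates 1 to 3), as did some of unlike number (OB 1 with control 2 at 0.21, OB 4 with control 3 at 0.27), so replicate block values are given where they change a call.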

Additional observations from a re-analysis of the deposited data

How the results depend on the processing

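Over all genes, edgeR called 667 higher and 574 lower in OB. The number higher was 1326 by DESeq2, 1247 by limma-voom and 1433 with a block for the description sets, and the number lower was 1219, 1081 and 1256 in the same order. The C1 and C2 libraries alone gave 1030 higher, and those with no C number 3052 higher and 3413 lower. Without 1 library at a time, 190 to 575 genes were higher and 104 to 703 lower. Of the potassium channel genes 2 were higher and 2 lower in all libraries. The libraries with no C number, with control 3 as the single control, gave 4 higher and 3 lower of 25 tested, where 40.1% of all genes were called, and the C1 and C2 libraries gave 3 and 3 of 25, where 9.67% were. Leaving out 1 library gave 0 to 2 higher and 0 to 2 lower. The replicate block gave 1 lower, since Kcnh2 no longer passed, and it changed no other call among the named members. None of the 4 called members changed direction under any alternative run. Kcnh2 in OB (32 counts) and Kcnmb4 in control (16 counts) rest on few reads, and the cause of the changed counts was not tested.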

Other observations

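Kcnv2, a silent voltage-gated subunit gene that was not tested, had 11 counts over the OB libraries and 3 over the control libraries, a ratio of pooled CPM of 3.49 (95% exact binomial interval 0.921 to 19.5, counting error only). Kcnc2 was uneven between the description sets. It stood at 1.38 and 1.10 CPM in OB 1 and 2, against 2.72 and 1.51 CPM in control 1 and 2, and at 5.05 and 3.93 CPM in OB 3 and 4, against 1.47 CPM in control 3, and the difference between the sets was not tested. Kcna4 had a log2 fold change of -1.85 in the C1 and C2 libraries (edgeR adjusted p = 0.0432) and of -0.16 in those with no C number. These genes were chosen after their values were seen.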
